A study of Mus musculus with 74 samples.

Results

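The 44 type I interferon response genes described here are genes that cells switch on after type I interferon, listed by symbol, and their RNA was followed in spinal cord microglia and sciatic nerve macrophages of ALS model mice. All 44 were found, each as 1 feature with that symbol alone, among the 23297 features with a gene symbol in each of 2 deposited expression tables. The rule that lists them uses no measured value, but the members were chosen with earlier results of these data known. The values are FPKM, which scale the fragments of a gene to its length and to the size of the library. A change is a difference of group means of log2(FPKM + 1), where the added 1 makes changes of weakly expressed genes look smaller than they are.

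Type I interferons, IFN-alpha and IFN-beta, bind the receptor pair IFNAR1 and IFNAR2. The kinases JAK1 and TYK2 then signal to the transcription factor complex ISGF3, which holds STAT2 and IRF9 and binds the interferon-stimulated response element in the promoters of target genes. In the central nervous system, microglia carry this response in a subset of cells during ageing, infection, demyelination and neurodegeneration.

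The mice were females. G93A mice carry a mutant human SOD1 transgene and develop motor neuron disease. The controls were non-transgenic C57BL6/J mice (B6) and mice transgenic for wildtype human SOD1 (WT), so that WT mice share the transgene with G93A mice but not the mutation. Cells were selected with magnetic beads against CD11b, a surface integrin of myeloid cells. A microglia (MG) library came from 1 spinal cord. For a macrophage (MP) library both sciatic nerves of a mouse were used, and each pre-symptomatic MP library pooled 2 mice. G93A MG were taken at a mean age of 50.8 days before symptoms (n = 4), at onset, the peak of body weight, at 105 days (n = 5), at the early symptomatic stage of 10% weight loss at 152.6 days (n = 4) and at end stage at 169.4 days (n = 4). B6 MG were taken at the ages of onset (109.8 days, n = 4) and end stage (165.6 days, n = 4), and WT MG at 107.3 and 165.4 days (n = 4 each). G93A MP covered the same stages with n = 3, 3, 4 and 4. In the second part of the study, G93A recipients were grafted at onset with bone marrow from G93A or WT donors, and MG and MP were taken at the early symptomatic and end stages with n = 3 for each marrow, stage and tissue, except n = 2 for MP after WT marrow at the early stage. In all there were 74 libraries in 21 groups.

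Sequencing depth is unknown, because the tables hold no counts. Another 4 MP libraries, as old as the end stage ones, have labels in conflict. Their descriptions and column names say WT, while their titles, source and strain say G93A. They are called the MP libraries described as WT, and any direction drawn against them rests on that description. MG libraries held the microglial markers P2ry12 and Tmem119, at 573 ± 484 and 401 ± 337 FPKM (SD, n = 4) before symptoms. Over 5 microglial markers, mean log2(FPKM + 1) ran from 6.86 to 9.14 in these pre-symptomatic libraries. Over astrocyte markers it ran from 8.16 to 8.57 and over oligodendrocyte markers from 7.77 to 8.17, so that RNA of other glia was abundant in them. In MP libraries before symptoms (n = 3) the neutrophil gene S100a8 stood at 47800 ± 20200 FPKM and the macrophage genes Mrc1 and Cd163 at 33.9 ± 31.5 and 29.8 ± 22 FPKM, so that neutrophil RNA was abundant in the CD11b-selected cells of the nerve. Mean log2(FPKM + 1) over 8 neutrophil markers ran from 11.76 to 13.11 in the non-grafted MP libraries, from 10.42 to 13.14 in the grafted ones, and from 1.41 to 11.54 and 2.03 to 9.36 in the MG libraries. Over 7 astrocyte markers it ran from 3.62 to 8.75 in the non-grafted MG libraries and from 3.16 to 8.64 in the grafted ones. In such bulk RNA, fewer cells of a type and less RNA per cell cannot be told apart.

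The sequence that ISGF3 recognises was searched for in the members' promoters. RefSeq promoters, 250 bases before to 50 after a start site (build GRCm38.p6), were at hand for 33 of the 44 members. The core of the interferon-stimulated response element, searched as GAAA, any 2 bases and GAAA, or on the other strand as TTTC, any 2 bases and TTTC, was present in 17 of these 33 (51.5%) and absent from the other 16. Counted in the same way per gene, it was present in 1079 of all 27025 genes with a promoter (3.99%). It was found in both RNA sensors with an entry (Ifih1 and Ddx58), in 5 of 9 RNA-binding effectors, in 1 of 4 transcription factors (Stat2) and in 0 of 6 members without an assigned role. The 160 bases before the start site are shown for 6 members with a match, taken from several roles, with each match to the interferon-stimulated response element in capitals and overlapping matches run together. Ifit1, Ifit3, Isg15, Oas1a and Bst2 rose in the microglia described below, and Gbp3 did not pass at the early symptomatic or end stage. Lgals3bp, with the largest rise at end stage, is shown because its promoter holds no match.
Ifit1, chr19:34640729-34640888, plus strand: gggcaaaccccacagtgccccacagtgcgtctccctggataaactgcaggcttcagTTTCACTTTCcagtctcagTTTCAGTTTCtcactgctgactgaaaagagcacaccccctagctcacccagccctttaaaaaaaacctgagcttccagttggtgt
Ifit3, chr19:34583369-34583528, plus strand: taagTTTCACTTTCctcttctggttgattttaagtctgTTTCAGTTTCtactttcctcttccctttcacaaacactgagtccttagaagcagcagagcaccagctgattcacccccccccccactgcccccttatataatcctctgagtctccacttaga
Isg15, chr4:156200819-156200978, minus strand: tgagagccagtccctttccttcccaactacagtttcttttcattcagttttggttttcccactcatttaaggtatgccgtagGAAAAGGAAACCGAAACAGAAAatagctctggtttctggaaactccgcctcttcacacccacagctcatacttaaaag
Oas1a, chr5:120907526-120907685, minus strand: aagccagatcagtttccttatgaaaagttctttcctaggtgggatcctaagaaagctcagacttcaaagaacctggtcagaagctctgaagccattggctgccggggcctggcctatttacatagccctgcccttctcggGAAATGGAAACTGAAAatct
Bst2, chr8:71537473-71537632, minus strand: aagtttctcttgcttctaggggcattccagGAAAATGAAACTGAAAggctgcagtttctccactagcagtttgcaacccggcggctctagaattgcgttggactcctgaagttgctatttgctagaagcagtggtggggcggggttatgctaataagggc
Gbp3, chr3:142559884-142560043, plus strand: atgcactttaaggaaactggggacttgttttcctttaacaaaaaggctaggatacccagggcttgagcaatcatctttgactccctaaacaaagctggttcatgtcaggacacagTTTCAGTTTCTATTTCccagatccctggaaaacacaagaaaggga
Lgals3bp, chr11:118401960-118402119, minus strand: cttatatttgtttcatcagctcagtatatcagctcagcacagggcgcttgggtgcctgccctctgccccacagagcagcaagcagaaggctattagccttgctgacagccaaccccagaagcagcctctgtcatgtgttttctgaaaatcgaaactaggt

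The matches of Ifit1, Ifit3, Isg15, Oas1a, Bst2 and Gbp3 lay before the start site, and those of Isg15, Oas1a, Bst2 and Gbp3 followed one another with shared bases. A match is a description of letters, not a bound site. Several members are neighbours: Ifit1, Ifit2 and Ifit3 lie together on chromosome 19, and on chromosome 5 Oas1a, Oas2 and Oas3 form 1 cluster and Oasl1 and Oasl2 another. Parp9 (chromosome 16, 35938470 to 35972621, plus strand) and Dtx3l (35926512 to 35939027, minus strand) overlap at their starts. How reads of overlapping genes or of near-identical relatives, as in the Ifit, Oas, Ifi200, Trim30 and schlafen families, were assigned is not stated, so the split of values within these families is uncertain.

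**Figure D1:**
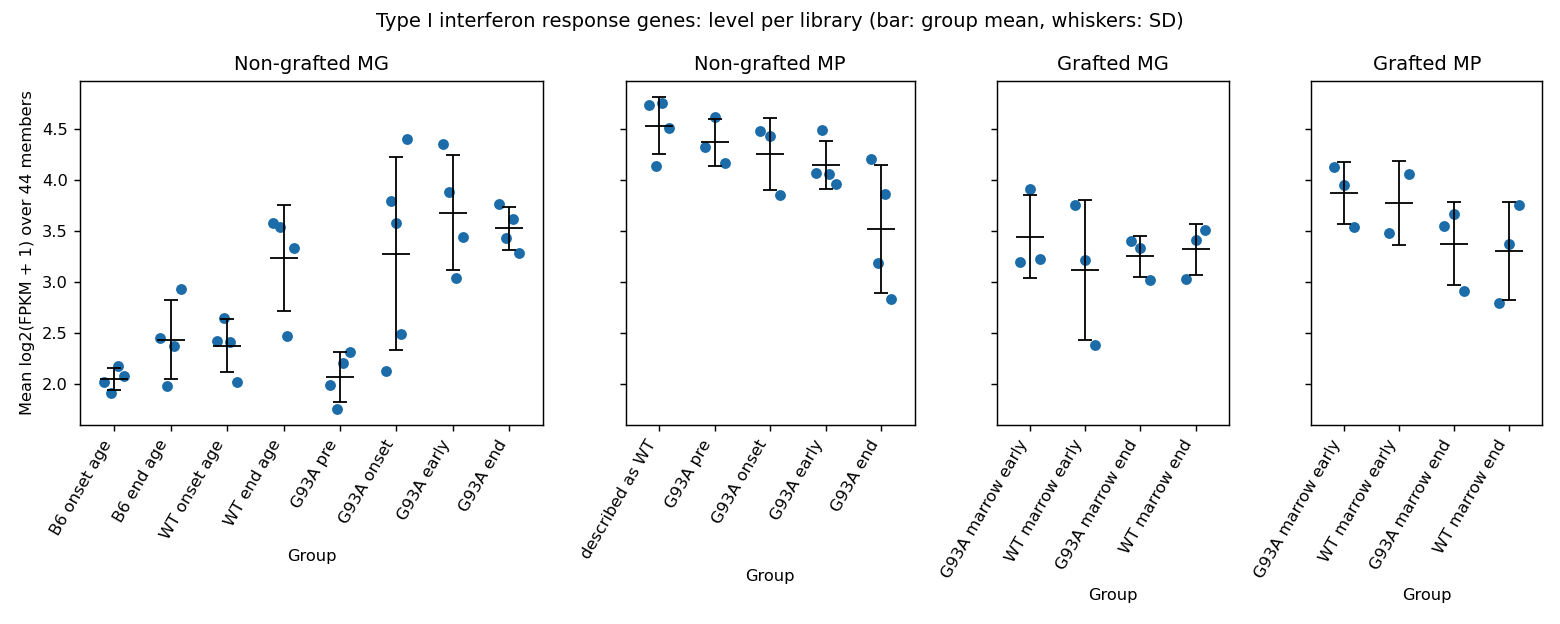
Mean log2(FPKM + 1) over the 44 members (y axis) in each library (points), by group (x axis), with the group mean and SD. The G93A MG means are 2.06 before symptoms, 3.28 at onset, 3.68 at the early symptomatic stage and 3.52 at end stage, and the MP means are 4.37 before symptoms and 3.52 at end stage. The grafted libraries come from a separate table that may have been scaled on its own.

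In spinal cord microglia of G93A mice the members rose together between the pre-symptomatic and the symptomatic stages. The mean log2(FPKM + 1) over all 44 was 2.06 ± 0.25 (SD, n = 4) before symptoms, 3.28 ± 0.95 (n = 5) at onset, 3.68 ± 0.56 (n = 4) at the early symptomatic stage and 3.52 ± 0.21 (n = 4) at end stage. Of the 42 members with a mean of at least 1 FPKM in MG (Oas2 and Oas3 were below it), limma with Benjamini-Hochberg adjustment over all 11750 genes called 34 higher and 0 lower at the early symptomatic stage than before symptoms, where 19.2% of all genes tested were called higher and 16% lower. Their median change was 1.59, against 0.05 over all genes tested. In 33 of the 42 every early symptomatic library stood above every pre-symptomatic one, as did 21.4% of all genes. The lowest stage mean was the pre-symptomatic one in 43 of the 44 members. The exception was Cmpk2, a nucleotide kinase, with its lowest mean at end stage.

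Among the transcription factors, Irf7, which amplifies interferon production, measured 4.42, 3.07, 5.59 and 4.99 FPKM in the pre-symptomatic libraries and 53.6, 28.7, 8 and 21.2 FPKM in the early symptomatic ones. All 4 early symptomatic values lay above the pre-symptomatic ones. The change of Irf7 was 2.13 ± 0.55 (SE; limma adjusted p = 0.00689). Stat2, a subunit of ISGF3, changed by 0.98 ± 0.37 (limma adjusted p = 0.04). Irf1, a factor also induced by interferon gamma, differed by 1.27 ± 0.52 and did not pass at the early symptomatic stage (limma adjusted p = 0.0549). Irf1 passed at end stage, at 1.32 ± 0.52 (limma adjusted p = 0.0324), but with neutrophil and oligodendrocyte marker scores as terms in the model it stood at -0.33 (limma adjusted p = 0.505). With the same terms Stat2 did not pass at the early symptomatic stage, at 0.42 (limma adjusted p = 0.335).

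Of the 5 nucleic acid sensors, 4 rose at the early symptomatic stage. Ifi204, a DNA-binding protein of the Ifi200 family, measured 2.10, 1.08, 2.16 and 3.58 FPKM before symptoms and 46.9, 38.9, 16.8 and 21.6 FPKM at the early symptomatic stage. The groups did not overlap, and the change of Ifi204 was 3.25 ± 0.58 (limma adjusted p = 0.000381). Zbp1, which binds Z-form nucleic acid and can trigger necroptosis, rose by 2.64 ± 0.51 (limma adjusted p = 0.000719). The exception was Ddx58, the cytoplasmic RNA sensor RIG-I, at a change of 0.49 (limma adjusted p = 0.217).

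All 8 RNA-binding effectors that were tested rose at the early symptomatic stage, with changes from 0.72 to 2.99. Oas1a, an enzyme that makes the 2-5A signal which activates RNase L, measured 2.23, 1.65, 2.97 and 4.52 FPKM before symptoms and 55.7, 36.9, 16.1 and 19.3 FPKM at the early symptomatic stage. These groups stood apart, with a change of 2.99 ± 0.62 (limma adjusted p = 0.00131). Oasl2, its relative, rose by 2.18 ± 0.44 (limma adjusted p = 0.0011). Ifit3, which binds foreign RNA together with Ifit1, measured 23.1, 9.29, 14.9 and 14.2 FPKM before symptoms and 170.8, 40.5, 27.8 and 89.2 FPKM at the early symptomatic stage. The change of Ifit3 was 2.07 ± 0.34 (limma adjusted p = 0.000179), and its highest library was early symptomatic replicate 1, which was the highest of its group in 32 of the 44 members.

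In the ubiquitin-like system 5 of 6 members rose at the early symptomatic stage. Isg15, a ubiquitin-like modifier, measured 4.32, 2.55, 2.86 and 2.94 FPKM before symptoms and 39.1, 19, 10.2 and 23.7 FPKM at the early symptomatic stage. Usp18, which removes ISG15 from proteins and dampens IFNAR signalling, measured 2.06, 2.05, 2.28 and 4.12 FPKM and then 35.8, 17.8, 8.41 and 13 FPKM. Neither gene's groups overlapped, and the changes were 2.40 ± 0.42 for Isg15 and 2.29 ± 0.44 for Usp18 (limma adjusted p = 0.000338 and 0.000782).

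The 3 membrane and entry factors, Bst2, Ifitm3 and Rtp4, all rose at the early symptomatic stage. Bst2, or tetherin, measured 12.9, 12.6, 26.4 and 27.6 FPKM before symptoms and 138.2, 190.3, 85.5 and 99.1 FPKM at the early symptomatic stage. Ifitm3, which blocks membrane fusion of viruses, measured 30.5, 20, 23.6 and 22.4 FPKM and then between 43.8 and 141.0 FPKM. The groups stood apart for both. Their changes were 2.65 ± 0.60 and 1.84 ± 0.59 (limma adjusted p = 0.00274 and 0.0204). Of the 4 GTPases 2 rose, and of the 3 schlafen genes, which control growth of immune cells and tRNA, 2 rose.

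Among members without a shared role, Ifi27l2a, a small mitochondrial protein induced by interferon, had the largest change of all 42. It measured 5.45, 1.66, 8.51 and 3.23 FPKM before symptoms and 103.4, 136.9, 43.6 and 52 FPKM at the early symptomatic stage, a change of 3.90 ± 0.73 (limma adjusted p = 0.000624). Lgals3bp, a secreted glycoprotein that binds galectins, measured 23.9, 16.6, 36.9 and 41.2 FPKM before symptoms, 486.2, 440.0, 276.0 and 253.4 FPKM at the early symptomatic stage and 666.2, 544.8, 631.5 and 269.3 FPKM at end stage. Both symptomatic groups lay far above the pre-symptomatic one. Its changes from before symptoms were 3.60 ± 0.52 and 4.11 ± 0.52 (limma adjusted p = 5.76e-05 and 5.31e-06).

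**Figure D2:**
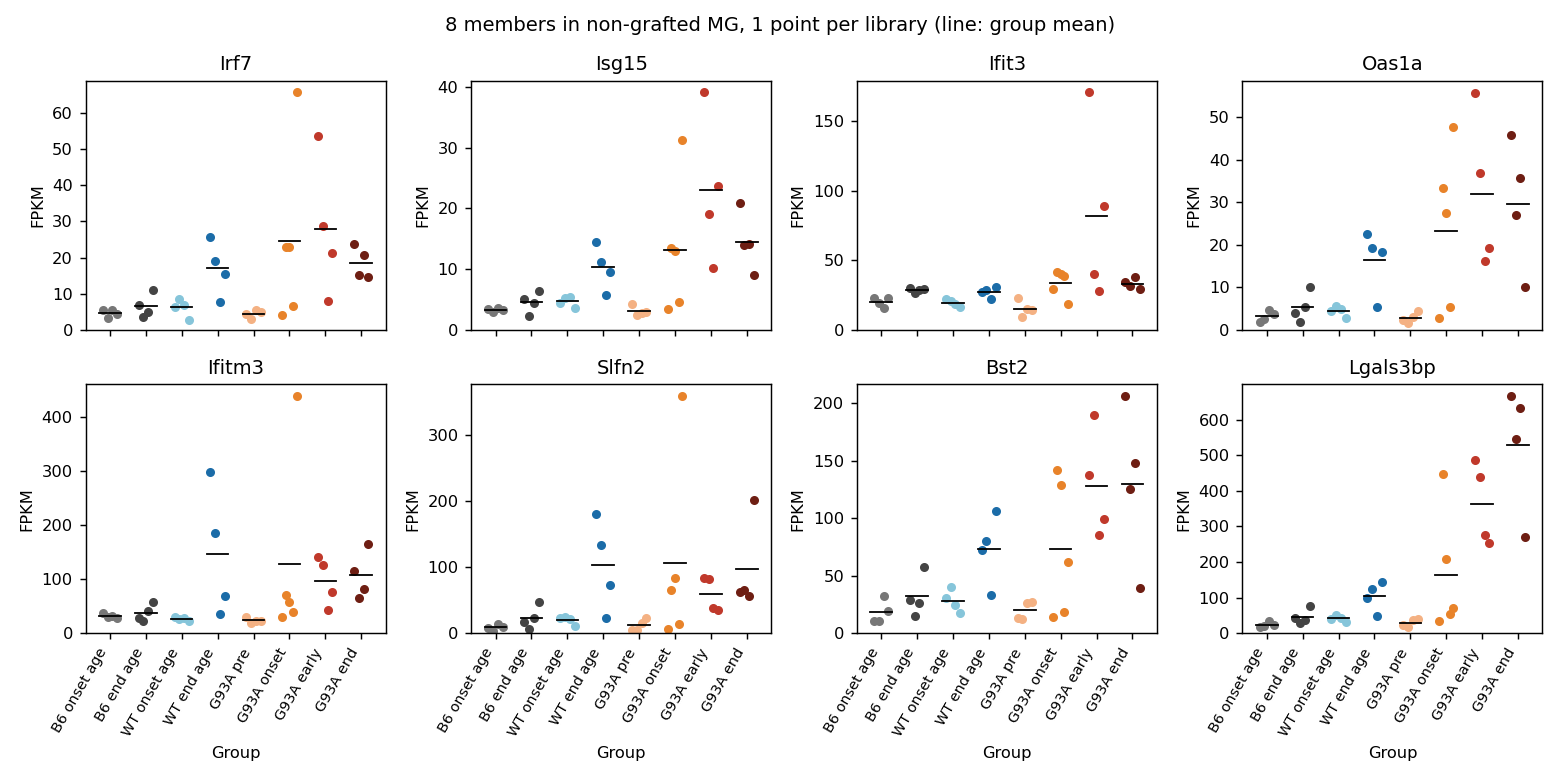
FPKM on a linear axis (y) of 8 members in each MG library (points) of the non-grafted mice, by group (x axis). Every early symptomatic and end stage value of Lgals3bp lies above its pre-symptomatic values, while the end stage Irf7, Slfn2 and Ifitm3 values overlap those of WT mice of that age.

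At end stage 33 of 42 members were called higher and 0 lower than before symptoms, where 24.8% of all genes tested were called higher and 31.1% lower, with a median change of 1.27 against 0.03. Groups stood apart in 35 members and in 23.1% of all genes. At onset 30 were called higher and 0 lower, against 10.3% higher and 15% lower of all genes, with a median change of 1.15 against 0.14, but the groups stood apart in only 6 members and in 2.03% of all genes. Of the members, 27 were called at all 3 stages, and Cmpk2, Mx2, Samd9l and Slfn8 at none. The end stage did not differ from the early symptomatic stage in any member or in any of the 11750 genes by limma, with 3 members at an unadjusted p under 0.05 and a median change of -0.16 against -0.06. In that comparison Ifit3 had a difference of -0.94 ± 0.34 (limma adjusted p = 0.96).

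The onset libraries fell far apart. Irf7 measured 4.05, 23.0, 23.1, 6.68 and 65.7 FPKM, and Slfn2 measured 7.06, 65.5, 84.0, 14.3 and 359.0 FPKM. The mean over 44 members was 2.12, 3.79, 3.58, 2.49 and 4.40 in replicates 1 to 5, and the astrocyte marker score was 8.63, 4.81, 3.62, 8.75 and 4.58. Replicates 1 and 4 were low in the members and as high in astrocyte markers as pre-symptomatic libraries (8.16 to 8.57). Replicate 5 was the highest in 27 of 44 members and had a neutrophil score of 10.53, against 3.41 to 5.39 in the other 4. No member was called at onset when replicate 5 was left out, when only these 2 groups were fitted, when low genes were not filtered, or with neutrophil and oligodendrocyte marker scores as terms in the model. Over all single libraries left out the count ran from 0 to 39.

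Non-microglial markers in the MG libraries also changed across stages: as the members rose, the median astrocyte marker fell and the median neutrophil marker rose. Of 7 astrocyte markers, 6 fell at onset, 4 at the early symptomatic stage and 6 at end stage compared with before symptoms, with median changes of -2.45, -1.92 and -3.13. Of 8 neutrophil markers none passed at the early symptomatic stage (median 1.99) and 5 rose at end stage (median 4.06). Of 5 microglial markers 1 rose at end stage, with a median of -0.11. With neutrophil and oligodendrocyte scores as terms, 24 of 42 members were still called higher at the early symptomatic stage (median 1.01) and 5 at end stage (median 0.39). Without the MG libraries whose neutrophil score exceeded 8, an alternative chosen after seeing the data, the counts were 37 and 34.

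**Figure D3:**
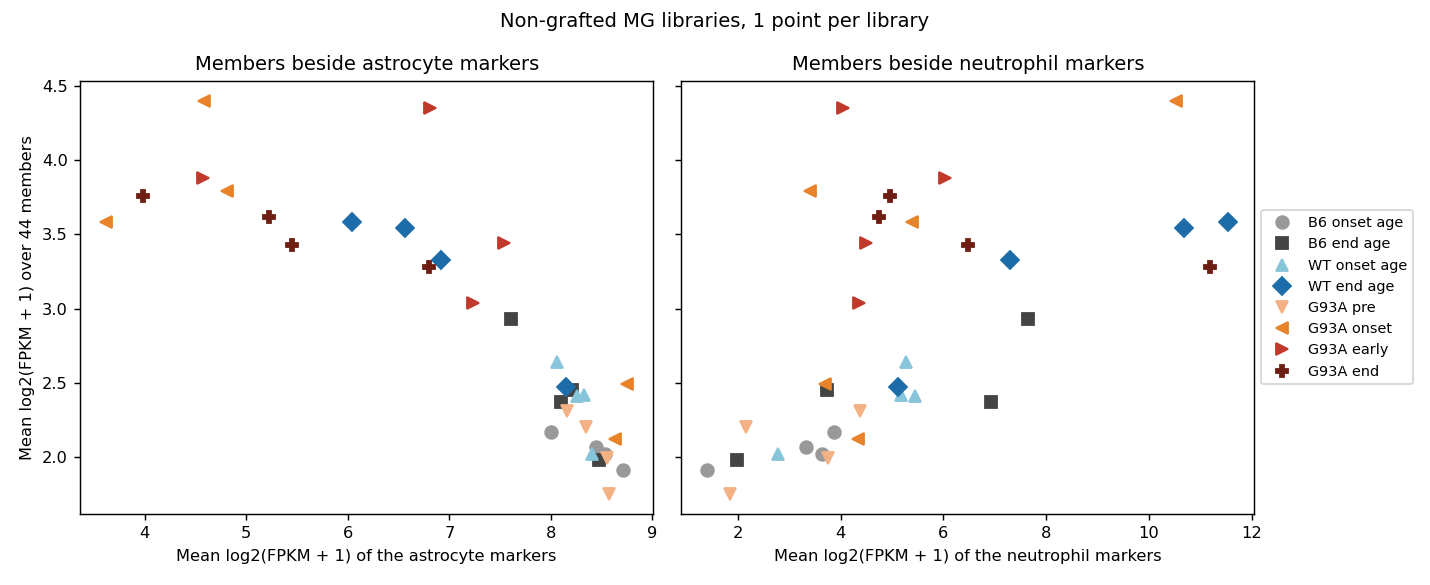
Mean log2(FPKM + 1) over the 44 members (y axis) against the astrocyte and neutrophil marker scores (x axes) in the MG libraries, coloured by group. Onset replicates 1 and 4, at 2.12 and 2.49, lie with the pre-symptomatic libraries at astrocyte scores above 8.

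Compared with WT mice of the same age, few members differed in G93A microglia. At end stage 2 of 42 members were higher, where 2.81% of all genes tested were called higher and 4.19% lower, and the median difference was 0.23 against -0.13 over all genes. Lgals3bp measured 100.3, 125.5, 49.9 and 142.8 FPKM in the WT libraries, all below the 4 end stage G93A values above, and it was higher in G93A by 2.34 ± 0.52 (limma adjusted p = 0.00639). Slfn5, named because it was the other member called, was higher by 1.03 ± 0.31 (limma adjusted p = 0.0424). It measured 2.27, 2.11, 2.69 and 2.12 FPKM in G93A and 0.500, 1.37, 0.170 and 0.640 FPKM in WT. Irf7, at 23.7, 15.1, 20.8 and 14.6 FPKM in G93A and 25.6, 19, 7.86 and 15.6 FPKM in WT, overlapped fully (difference 0.20 ± 0.55, limma adjusted p = 0.862). Groups stood apart in 5 members, Lgals3bp, Slfn5, Ifi204, Ifit1 and Ifit2, and in 5.97% of all genes. At end stage the neutrophil markers had a median difference of -1.86 between G93A and WT libraries, with 0 of 8 called, and 1 of 7 astrocyte markers fell. The count was 2 without the libraries high in neutrophil markers, 1 with the marker scores as terms and 1 to 2 with single libraries left out.

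At onset 2 of 42 members were higher in G93A than in WT microglia, where 1.04% of all genes tested were called higher and 3.27% lower. These were Ifit1, at 1.24 ± 0.34, and Gbp2, a GTPase that attacks vacuoles of pathogens, at 0.88 ± 0.25 (limma adjusted p = 0.0482 for both). The median difference was 0.88 against 0.04, and 27 members had an unadjusted p under 0.05, a cutoff for which the share of all genes was not counted. The count rested on single libraries: it was 33 without onset replicate 1, 26 without onset replicate 4, and 0 without any one of the other libraries of these groups. The shares of all genes called in those fits are not given. It was 0 without the library high in neutrophil markers and with the marker scores as terms.

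The members were higher in WT microglia at the later age than at the earlier one in all but 1 group mean, without passing the test. The mean over the WT libraries at 165.4 days exceeded that at 107.3 days in 43 of 44 members (not Gbp3), and the median difference was 0.92 against 0.01 over all genes. None of 42 was called by limma (smallest adjusted p = 0.122), where 0.128% of all genes were called, and 23 had an unadjusted p under 0.05. How many of all genes fell under that unadjusted cutoff was not counted. Isg15 measured 4.52, 5.25, 5.43 and 3.70 FPKM at the earlier age and 14.5, 11.2, 5.82 and 9.61 FPKM at the later one. The groups of Isg15 did not overlap, as in 10 members and in 5.96% of all genes. WT end stage replicate 3 was the lowest of its group in 36 of 44 members. Without it, 12 members were called higher at the later age, a count given without the share of all genes called in that fit. This library had a neutrophil score of 5.12 and an astrocyte score of 8.15, against 7.29 to 11.54 and 6.04 to 6.92 in the other 3, and with the marker scores as terms the median difference was 0.24.

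Compared with B6 mice, which carry no transgene, 32 of 42 members were higher in G93A microglia at onset and 24 at end stage, and none was lower. Of all genes tested 29.4% were called higher and 25.7% lower at onset, and 18.3% higher and 28% lower at end stage. The median differences were 1.24 against 0.15 and 0.97 against 0.00. At end stage Lgals3bp was higher than in B6 by 3.47 ± 0.52 (limma adjusted p = 4.56e-05), with 42.3, 30.2, 38.4 and 77.6 FPKM in B6. Bst2 was higher by 1.91 ± 0.60, Isg15 by 1.49 ± 0.42 and Irf7 by 1.42 ± 0.55 (limma adjusted p = 0.0124, 0.00676 and 0.0371), while Ifit3 did not pass (0.20 ± 0.34, limma adjusted p = 0.643). With the marker scores as terms 0 members were called at onset and 5 at end stage, and Bst2, Isg15 and Irf7 did not pass at end stage (0.73, 0.78 and 0.43, limma adjusted p = 0.143, 0.0835 and 0.464). Leaving out single libraries gave 18 to 37 at onset, with 18 without onset replicate 5 and 19 without onset replicate 3, and 10 to 27 at end stage, with 10 without B6 end stage replicate 2 and 11 without G93A end stage replicate 1.

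WT and B6 microglia did not differ in any member by limma. At the age of onset the median difference was 0.35, against 0.08 over all genes, with 1 member at an unadjusted p under 0.05. At the age of end stage it was 0.86 against 0.07, with 20 members at an unadjusted p under 0.05 (smallest limma adjusted p = 0.238). The share of all genes under that cutoff was not counted. Of the WT means at end stage, 42 of 44 stood above the B6 means. None of the 11750 genes tested was called in either comparison (0%). Neutrophil markers differed between WT and B6 at end stage by a median of 3.77, with 0 of 8 called.

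**Figure D4:**
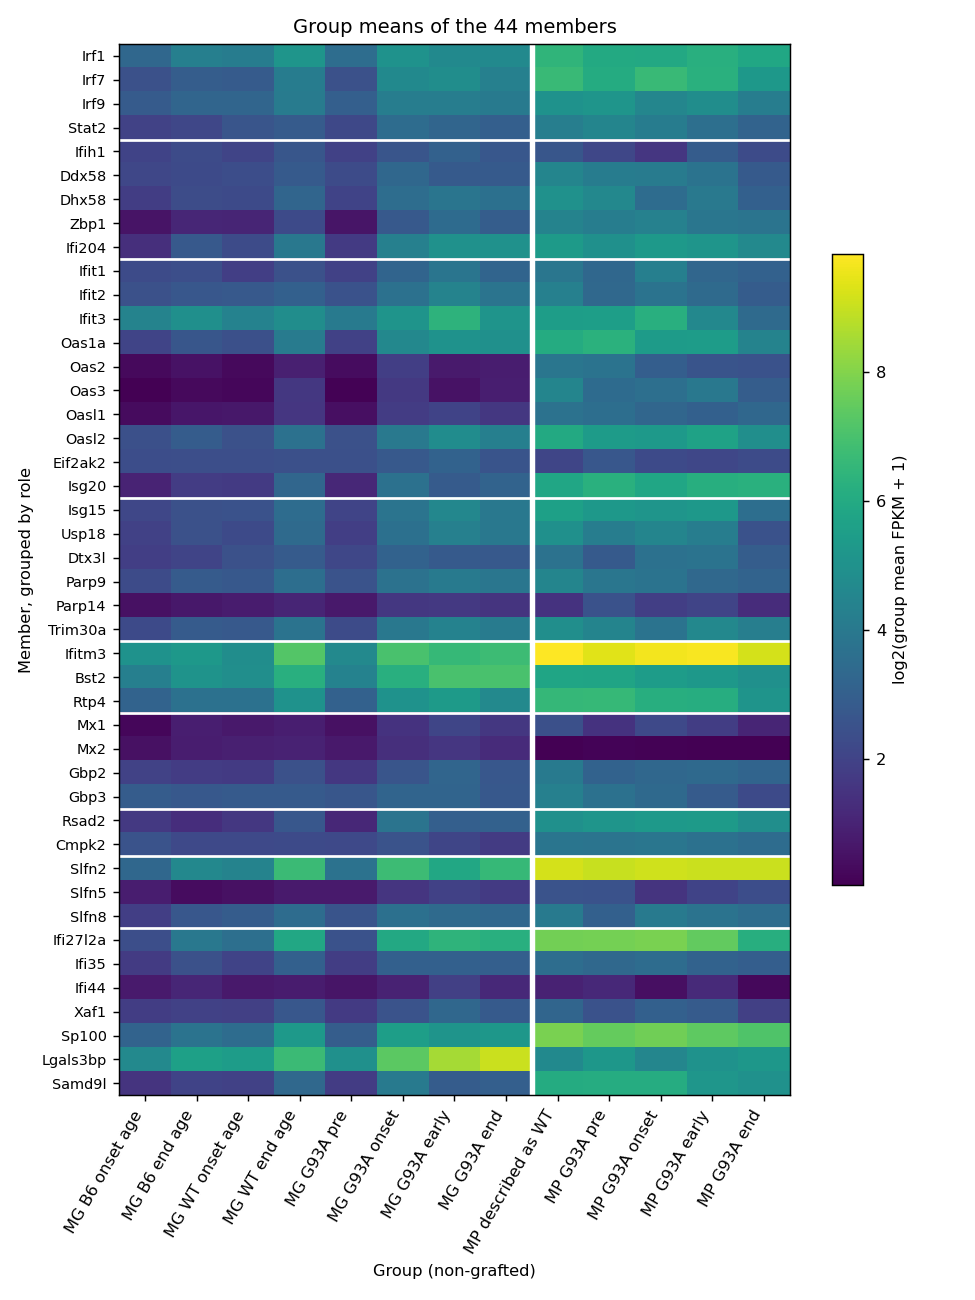
Log2(group mean FPKM + 1) of each member (rows, ordered by role) in each non-grafted group (columns), as a colour scale from dark (low) to bright (high). The pre-symptomatic and B6 microglia are the darkest microglial columns for most members, and the MP columns are brighter for Slfn2, Ifitm3, Sp100 and Isg20.

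In sciatic nerve macrophages the members were high before symptoms and none passed the test across stages. The mean over 44 members was 4.37 ± 0.23 (n = 3) before symptoms, 4.25 ± 0.35 (n = 3) at onset, 4.15 ± 0.24 (n = 4) at the early symptomatic stage and 3.52 ± 0.62 (n = 4) at end stage. Of the 42 members tested (Ifi44 and Mx2 were below 1 FPKM), none was called at onset, the early symptomatic stage or end stage against before symptoms, where 0%, 0% and 0.00975% of the 10260 genes tested were called. By unadjusted p under 0.05 there were 1, 2 and 15 members, and the share of all genes under that cutoff was not counted. The median change at end stage was -0.81 against -0.12 over all genes, and the end stage mean was below the pre-symptomatic mean in 38 of 44 members.

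Irf7 measured 81.7, 44.3 and 69.7 FPKM before symptoms and 66.6, 25.1, 38 and 18.7 FPKM at end stage in MP. Oas1a measured 67.8, 83.3 and 82.8 FPKM before symptoms and 39.4, 16.4, 23.3 and 2.37 FPKM at end stage. The Irf7 groups overlapped and the Oas1a groups did not. End stage values stood below all pre-symptomatic ones in 11 members and in 4.81% of all genes. Slfn2, by contrast, measured 413.2, 541.5 and 570.3 FPKM before symptoms and 632.0, 620.3, 476.7 and 375.3 FPKM at end stage. Replicate 4 was the lowest end stage library in 24 of 44 members. The mean over the members was 4.20, 3.18, 3.86 and 2.83 in end stage replicates 1 to 4. Of the non-grafted MP libraries, replicate 4 had the highest mean over erythroid markers (14.08) and the largest share of its FPKM in features without a symbol (25.01%), and replicate 2 the highest astrocyte score (4.46). The part of these in the members' levels was not tested. Without replicate 4 the median change from before symptoms was -0.60, and none of the 42 members was called.

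Against the MP libraries described as WT, the end stage libraries had a median difference of -0.94, against -0.02 over all genes, and lower means in 40 of 44 members. No member and no gene passed in limma (0% of 10260, smallest adjusted p among members 0.151), with 21 members at an unadjusted p under 0.05. The share of all genes under the unadjusted cutoff was not counted. Without end stage replicate 4 the median difference was -0.56. Groups stood apart with end stage lower in 12 members and in 2.27% of all genes. Usp18 measured 8.50, 0, 8.95 and 1.27 FPKM at end stage and 24.4, 20.4, 42.0 and 32.5 FPKM in the libraries described as WT (difference -2.96 ± 0.62, limma adjusted p = 0.151). Non-grafted MP libraries had up to 7 members at 0, the most in end stage replicate 2, which gave the Usp18 value of 0. Of 3128 genes with a median of at least 20 FPKM, up to 13 were also at 0 in a library. That library was replicate 2 of those described as WT. A 0 in MP can therefore be a missed estimate. The macrophage genes Mrc1 and Cd163 stood at 3.12 ± 3.36 and 3.43 ± 5.71 FPKM at end stage (n = 4) against 33.9 and 29.8 FPKM before symptoms, and their part in the members' levels was not tested.

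The change between the pre-symptomatic and end stages differed between the tissues in 26 of 42 members, each with the lower change in MP. This was tested as the difference of the 2 changes in a limma fit of all non-grafted libraries, where 10.3% of 11773 genes were called lower and 9.51% higher. The median was -2.24 against -0.18 over all genes. Ifi27l2a had the largest difference, -5.75 ± 1.03 (limma adjusted p = 0.000489), made of a rise of 3.58 in MG and a difference of -2.17 in MP that did not pass. For Oas1a it was -5.21 ± 0.87, for Usp18 -4.31 ± 0.78, for Lgals3bp -4.16 ± 0.80, for Ifi204 -3.88 ± 0.83 and for Rtp4 -3.76 ± 0.86 (limma adjusted p from 0.000248 to 0.00431). Irf1 did not pass, at -1.52 ± 0.70 (limma adjusted p = 0.116). The count was 20 with marker scores as terms and 21 to 29 with single libraries left out.

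**Figure D5:**
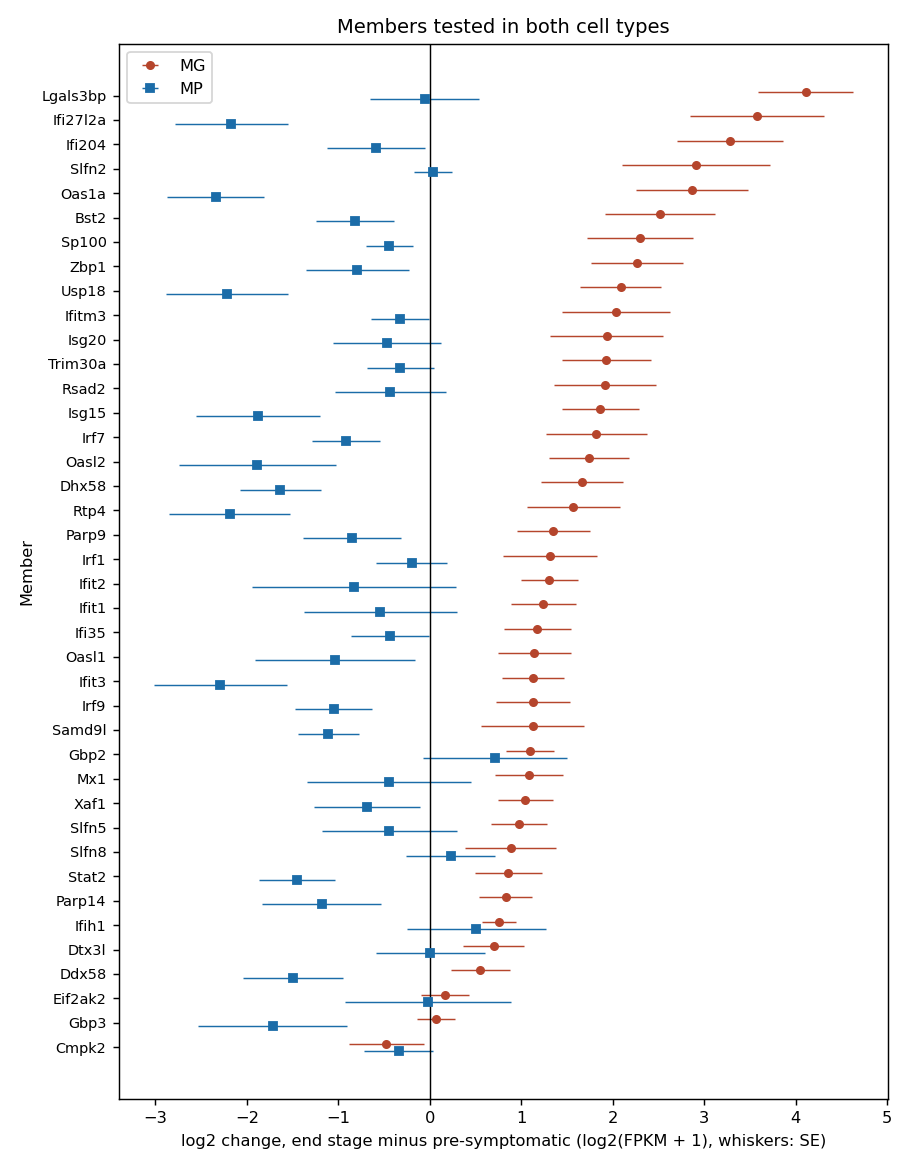
Change from before symptoms to end stage (x axis) of each member tested in both tissues (y axis), on the log2(FPKM + 1) scale. MG changes are circles and MP changes are squares, with whiskers for the SE. Most MG points lie right of 0 and most MP points left of it, with Lgals3bp farthest right at 4.11 in MG.

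Before symptoms, 31 of 42 members were higher in MP than in MG and 0 lower, where 23.6% of all genes tested were called higher and 31% lower. The median difference was 2.31 against -0.17, and 43 of 44 MP means stood above the MG means (not Mx2). Slfn2 differed by 5.50 ± 0.71, Ifi27l2a by 5.42 ± 0.76, Isg20, an RNA exonuclease, by 5.10 ± 0.67, and Ifitm3 by 4.73 ± 0.55 (limma adjusted p from 7.45e-09 to 1.5e-07). Ifitm3 measured 707.7, 567.4 and 710.5 FPKM in MP, beside 20 to 30.5 FPKM in MG. With scores of neutrophil and of oligodendrocyte plus Schwann cell markers as terms no member was called, with a median of 1.14. The neutrophil score separates the tissues without overlap at this stage, at 11.76 to 12.80 in MP and 1.85 to 4.37 in MG, so tissue and neutrophil content cannot be told apart.

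At end stage the tissues no longer differed in 1 direction. MP was higher in 8 of 42 members and lower in 5, where 13.1% and 26.3% of all genes were called, and the median difference was -0.12 against -0.37. The higher ones were led by Isg20 (2.70 ± 0.62), Slfn2 (2.62 ± 0.66), Ifitm3 (2.37 ± 0.51) and Samd9l (2.04 ± 0.49). The lower ones were Lgals3bp (-3.85 ± 0.55), Ifit3 (-2.02 ± 0.52), Usp18 (-1.97 ± 0.53), Bst2 (-1.96 ± 0.54) and Xaf1 (-0.96). For these named members limma adjusted p ran up to 0.00377 with the exception of Xaf1, which is named to complete the 5. Bst2 measured 40.4, 26.6, 37.1 and 14.9 FPKM in MP, beside 206.8, 125.4, 148.6 and 39.7 FPKM in MG, and its groups overlapped by 1 library. With the marker scores as terms 7 members were called, 1 higher and 6 lower.

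In grafted G93A mice the source of the bone marrow made no difference that passed in any member. All 44 members were tested in MG and 42 in MP (not Ifi44 and Mx2), in 8 comparisons of marrow or stage. No member and no gene was called by limma (0% of 11143 genes in MG and 0% of 10299 in MP), with 0 to 4 members at an unadjusted p under 0.05 in a comparison. For WT against G93A marrow the median member difference was -0.40 in MG at the early symptomatic stage, 0.07 in MG at end stage, 0.05 in MP at the early stage and -0.02 in MP at end stage. For end stage against the early stage it was -0.26 in MG and -0.49 in MP after G93A marrow, and 0.27 in MG and -0.54 in MP after WT marrow. Groups of 2 or 3 libraries limit what these comparisons can show.

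Lgals3bp measured 457.7, 544.1 and 331.3 FPKM in MG at the early symptomatic stage after G93A marrow and 529.5, 277.4 and 138.8 FPKM after WT marrow. At end stage it measured 591.7, 968.7 and 833.0 FPKM after G93A marrow and 868.5, 631.9 and 689.9 FPKM after WT marrow. The groups overlapped at both stages. Isg15 measured 10.0, 21.2 and 10.6 FPKM and 18.6, 5.48 and 7.10 FPKM in MG at the early stage, with overlap (-0.49 ± 0.51, limma adjusted p = 0.725). The lowest early library after WT marrow, replicate 3, had an astrocyte score of 8.64, against 3.46 to 6.48 in the other early MG libraries. The grafted table may have been scaled apart from the other, so levels were not tested across them.

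Of the genes upstream of the members, some changed in microglia. Of all genes tested 19.2% rose at the early symptomatic stage and 24.8% at end stage. None of the 8 interferon ligands looked for passed the filter on low values: the highest level of a type I ligand was that of Ifnb1, at 0.63 FPKM in a WT MG library at end stage and, in the grafted table, 0.78 FPKM in an MG library after WT marrow at end stage, and Ifng reached 5.71 FPKM in 1 MP library at onset. Of 8 receptor and kinase genes, 2 rose at the early symptomatic stage against before symptoms, a share near that of all genes, and 4 at end stage. Ifnar2, a chain of the receptor for type I interferon, rose by 1.82 at the early symptomatic stage (limma adjusted p = 0.0123). Ifnar2 measured 47.2 ± 24.3 FPKM before symptoms and 157 ± 34 FPKM at the early symptomatic stage (SD, n = 4).

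Of 18 genes that sense nucleic acid or drive interferon induction, 6 rose and 1 fell at the early symptomatic stage, where 19.2% of all genes tested rose and 16% fell. At end stage 10 rose and 2 fell, where 24.8% of all genes rose and 31.1% fell. Irf8, a myeloid transcription factor, rose by 1.90, Tlr9, a DNA receptor of endosomes, by 1.80, and Tlr7, its relative for RNA, by 1.66, while Traf3, an adaptor, fell by 0.85. Tlr9 stood at 0.0925 ± 0.066 FPKM before symptoms and 2.95 ± 1.25 FPKM at the early symptomatic stage (SD, n = 4). Of 11 negative regulators listed 9 were tested, and 6 rose at each of these stages. Among them were Ptpn6, a phosphatase, by 1.90 and Tnfaip3, which restrains NF-kB, by 1.75 at the early symptomatic stage. Of 12 listed genes that lean towards interferon gamma only 6 were tested. At the early symptomatic stage 4 of these rose, including Cxcl10, a chemokine, by 2.55 and Cd274, the checkpoint ligand PD-L1, by 2.22. Against WT mice at end stage, Cd274 was higher by 1.51 and Ikbke, a kinase that activates interferon regulatory factors, by 1.46, and Tlr3 had a difference of -0.84. None of these lists had a member called in MP across stages.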

How the data were processed

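RNA-seq of CD11b-selected cells was deposited as 2 tables of FPKM (fragments scaled to gene length and library size), 1 for 51 non-grafted and 1 for 23 grafted libraries, per the file headers. The genome build mm10 and the tools SAMtools, Picard, FastQC, DESeq2 and R 3.2.5 stand in the submitters' processing notes, without their roles. Which aligner and counter were used is not stated. The values, other than counts, were read with commas as decimal points, and whole reads could not be recovered from them. Features without a symbol were left out, and 1 gene upstream of the members is not reported here.

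limma 3.58.1 (R 4.3.3) was fitted on log2(FPKM + 1) with a mean-variance trend, over genes with a mean of at least 1 FPKM in the fit. The 33 MG, 18 MP, 12 grafted MG and 11 grafted MP libraries, and all non-grafted libraries for MG against MP, were fitted apart. Tests were two-sided, with Benjamini-Hochberg adjustment over all genes and a threshold of 0.05. Where members are counted at an unadjusted p under 0.05, the share of all genes was not counted. The script was tested on simulated data. The labels number the replicates without naming mice, and replicates were taken as independent samples. The pre-symptomatic MP replicates are pools of mice, so their spread is not a spread between single mice. The p-values measure the spread between libraries. Members, marker lists and pathway lists were chosen with earlier results of these data known. Named in each comparison were 10 sentinel members (Ifit3, Irf7, Isg15, Ifitm3, Ifi27l2a, Irf1, Stat2, Usp18, Oasl2 and Bst2), the 6 called members with the largest rise or fall at 5 FPKM or more, and up to 4 genes per other list.

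Alternatives were a pseudocount of 0.1, no filter, only the groups compared, median-ratio scaling, the replicate number as a block, marker scores as terms and leaving out each library. Counts of members under an alternative are given without the share of all genes called in the same fit.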

Additional observations from a re-analysis of the deposited data

Results flagged for a closer look

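In each of the 11 groups of 4 or 5 libraries, the 10 sentinel members and the mean over all 44 members were examined. Of these sets of values 8 (6.61%) held a library far from the others by Dixon's criterion, close to the 5% or so that chance gives. In microglia these were Usp18 at 4.12 FPKM in pre-symptomatic replicate 4 (highest), Ifitm3 at 439.55 FPKM in onset replicate 5 (highest), Stat2 at 4.81 FPKM in B6 onset replicate 1 (highest) and Irf1 at 14.64 FPKM in WT end stage replicate 3 (lowest). In nerve macrophages they were Irf7 at 105.09 FPKM and Usp18 at 37.41 FPKM in early symptomatic replicate 2 (highest), Ifi27l2a at 74.54 FPKM in replicate 2 of the libraries described as WT (lowest) and Bst2 at 110.08 FPKM in their replicate 1 (highest).

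The change from before symptoms to end stage differed between nerve macrophages and microglia in 26 members by limma. Among the sentinel members the difference was -3.34 for Bst2, -5.75 for Ifi27l2a, -3.42 for Ifit3, -2.35 for Ifitm3, -2.73 for Irf7, -3.74 for Isg15, -3.63 for Oasl2, -2.31 for Stat2 and -4.31 for Usp18.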

How the results depend on the processing

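Counts of called members are given, the count under each alternative first and the reported one after "in place of". With marker scores as terms the counts were 0 in place of 30 at onset against before symptoms, 5 in place of 33 at end stage, 0 in place of 32 for onset and 5 in place of 24 for end stage against B6, 0 in place of 2 for onset and 1 in place of 2 for end stage against WT, 0 in place of 31 for MP against MG before symptoms and 7 in place of 13 at end stage. Without a filter they were 0 at onset against before symptoms, 0 at onset and 1 at end stage against WT. With only the groups compared they were 0 for onset against before symptoms, WT and B6. Median-ratio scaling gave 0 for onset against WT. Without libraries high in neutrophil markers, chosen after seeing the data, the counts were 0, 0 and 18 for onset against before symptoms, WT and B6.

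Replicate numbers do not pair the samples within a tissue: over same-numbered MG pairs the mean correlation of deviations was -0.03. Of the MG libraries, 7 of 33 were closest to their own number. Whether MG and MP libraries came from the same mice was not tested, and the tests of MP against MG took them as independent. The replicate block gave 0, 0 and 12 for onset against before symptoms, WT and B6.

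Leaving out single libraries gave 0 to 39 for onset against before symptoms, 0 to 33 against WT and 18 to 37 against B6, 10 to 27 for end stage against B6, 1 to 2 against WT, 28 to 33 for end stage and 24 to 35 for early against before symptoms, 0 to 12 for WT by age, 29 to 31 and 11 to 15 for MP against MG, and in grafted mice 0 to 2 for MG early and MP end stage by marrow and 0 to 1 for MG after WT marrow by stage. Of the sentinel members, Irf1 (-0.33) and Stat2 (-0.04) changed sign at end stage against before symptoms with marker scores. The cause was not tested. In MP against MG before symptoms Ifit3 stood at -0.05 with the replicate block. That block sets the baselines of MP and MG at different replicate numbers, so this value is not a difference of the group means.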
